A study of Gossypium hirsutum with 45 samples.

Results

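The transcript levels of leaf and root were compared in untreated seedlings of upland cotton (Gossypium hirsutum), line Hengmian HD008. The members were all libraries taken before treatment from these tissues: 3 from leaf and 3 from root, 6 of the 45 libraries of the series. The series took leaf, root and stem before and after 10, 30, 60 and 180 min in 10% PEG 6000, a polymer that draws water from roots and is used to imitate drought, with 3 libraries in each of its 15 groups. Its theme is the phosphatidylinositol signalling system in the early drought response. Leaf and root shared the line, the growth conditions (sterilised sand, 25 °C, 16 h light and 8 h dark) and the stage of 3 leaves, and the labels name no transgene or other treatment. The labels mark these samples as CK, the control at 0 min, and do not say whether a library is 1 plant or a pool. The p-values therefore cover only the spread of these libraries, which may be technical. Both tissues are mixtures of cell types, and in such bulk samples fewer cells of a type and less RNA per cell cannot be told apart.

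A leaf makes sugar from carbon dioxide with light, in chloroplasts whose proteins are coded largely in the nucleus. A root has no light to harvest, takes up water and minerals through transporters in its outer cells, and controls their passage inward with walls that carry lignin and suberin. In cotton, roots also make terpenoid aldehydes of the gossypol family, which protect against pests and pathogens.

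Levels are the deposited FPKM (fragments per kilobase, adjusted for sequencing depth by median-of-ratios size factors of all 45 libraries, not by reads in genes). Values of single libraries are in the order leaf 1, 2 and 3, then root 2, x and y. Root x and y are table columns that share a name, so they carry no replicate number. Of 75376 genes, 45711 had at least 1 FPKM in at least 3 of the 6 libraries and were tested with limma on log2(FPKM + 1). All log2 differences are leaf minus root on that scale, which understates the difference of genes with low levels, and their error is the SE of the fit. Means are ± SD of 3 libraries. A gene near 0 in 1 tissue can pass this filter through the other alone, so counts of called genes within lists are descriptions. A gene is called when its p, adjusted by Benjamini and Hochberg's method over all tested genes, is under 0.05. Gene locations are given as chromosome, start and end of the deposited table, where A and D mark the subgenomes of this tetraploid, whose genome build the sources used here do not give.

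The 6 libraries held 16540503 to 21774520 reads in genes. Across the tested genes, Pearson's r of log2 levels was 0.903 to 0.962 between leaf libraries, 0.952 to 0.968 between root libraries and 0.410 to 0.518 between tissues. The tissue labels were checked on marker lists. Chlorophyll-binding, Rubisco and YABBY transcripts were far higher in leaf than in root, and dirigent-like proteins and the accessory protein of nitrate uptake stood high in root. Other root marker lists were mixed. Summed levels of Casparian strip proteins and class III peroxidases overlapped between the tissues, although more genes of each were called higher in root. Summed nutrient transporters were higher in root (3944 ± 834 against 1438 ± 43.9 FPKM). Nitrate and peptide transporters were higher in leaf in sum (658 ± 84.8 against 487 ± 60.1 FPKM). Root y held more photosystem transcript than the other root libraries, and each gene named as called below was also called without root y. Leaf 3 stood apart from the other leaf libraries in several families, among them the WRKY, NAC, AP2/ERF, jasmonate and LEA lists, whose values are given below.

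About as many genes were called higher in leaf as in root on the deposited scale. Of the 45711 tested genes, 22756 (49.8%) were called, 11564 (25.3%) higher in leaf and 11192 (24.5%) higher in root, and the median log2 difference of all tested genes was -0.02. The shares called in the lists below are to be set against these. The even split depends on the scaling, since median-of-ratios size factors centre the ratios between libraries. With each library divided by its own FPKM total, 12049 genes were called higher in leaf and 10147 in root. With quantile normalisation the numbers were 10925 and 12270. Differences were often large: 3705 genes were called more than 2 log2 units higher in leaf and 3257 in root, and 404 and 250 genes passed 5 log2 units. All leaf libraries lay above all root libraries for 13608 genes and below them for 13777. For 4544 genes (9.94% of those tested) the 95% interval of the difference lay within 0.5 log2 units of 0.

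**Figure D1:**
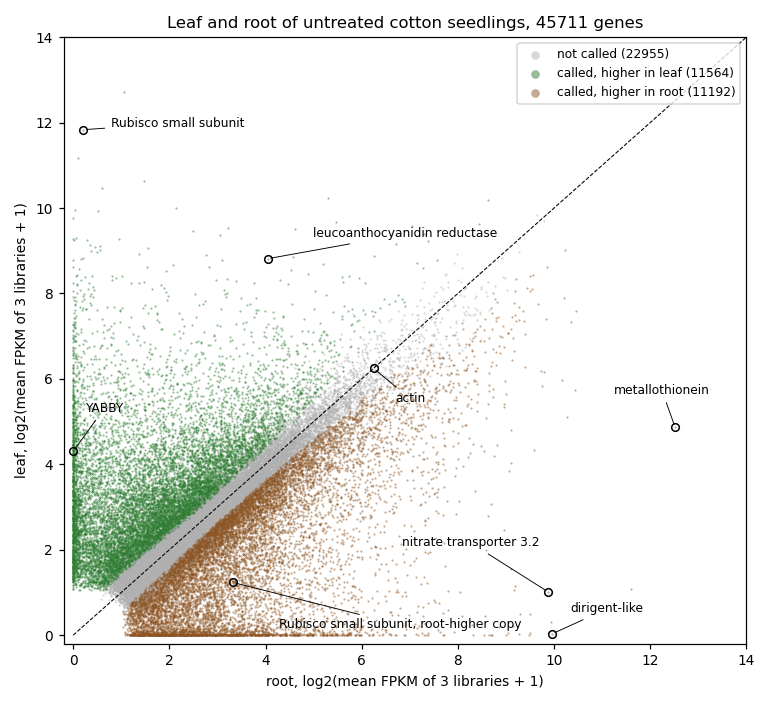
Each point is a tested gene, with its level in root on the x axis and in leaf on the y axis, both as log2 of the mean FPKM of 3 libraries plus 1; colours mark calls at an adjusted p under 0.05 and the dashed line marks equal levels. The 11564 green and 11192 brown genes lie on both sides of the line, with a column of leaf genes at 0 in root and a row of root genes at 0 in leaf.

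Some abundant genes of each tissue were near 0 in the other. Of 10431 genes at 10 FPKM or more in all leaf libraries, 743 (7.12%) stayed under 1 FPKM in all root libraries. Of 10379 genes that high in all root libraries, 484 (4.66%) stayed under 1 FPKM in all leaf libraries. Among the leaf genes, the most frequent descriptions were cytochrome P450 (11 genes), GDSL-like lipase (10), PsbX, PsbP and chlorophyll a-b binding protein (9 each) and YABBY protein (6). Among the root genes they were cytochrome P450 (20), dirigent-like protein (14), DUF296 (13), multicopper oxidase (10), peroxidase (9) and major intrinsic protein, the aquaporin family (9).

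Of the 10 described genes with the largest leaf excess, 6 are described as Rubisco small subunits, 2 as copper proteins of the plastocyanin and azurin family, 1 by an iron-sulfur cluster domain and 1 as of the lipid transfer family. Rubisco fixes carbon dioxide, and its small subunit is coded in the nucleus. Gene Gohir.D11G169600 (D11:18592872-18593898) for this subunit stood at 3189, 3736 and 4033 FPKM in leaf and 0, 0.0519 and 0.421 FPKM in root (log2 difference 11.64 ± 0.21, adjusted p = 3.56e-07). Another member, Gohir.D07G180900 (D07:45771171-45772256) stood at 3868, 4355 and 3611 FPKM in leaf, and in root it was listed at 0 in 2 libraries and stood at 2.73 FPKM in root y (log2 difference 11.31 ± 0.51, adjusted p = 5.11e-06). Every leaf library exceeded every root library for both. The 8 small-subunit genes together took 2.92% to 3.34% of all FPKM in leaf.

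Rubisco small subunit was not a leaf family throughout. Of its 8 tested genes 6 were called higher in leaf and 2 higher in root. Gene Gohir.A03G022400 (A03:4360546-4361782) stood at 1.12, 1.75 and 1.2 FPKM in leaf and 11.7, 8.72 and 6.58 FPKM in root (log2 difference -2.06 ± 0.22, adjusted p = 0.000245), 6.65-fold higher in root. Gene Gohir.D03G146300 (D03:50976608-50978075) stood at 0, 0.173 and 0.266 FPKM in leaf and 6.12, 4.01 and 2.71 FPKM in root (log2 difference -2.16 ± 0.26, adjusted p = 0.000416). Leaf and root libraries did not overlap for either gene. After 180 min of PEG the root level of Gohir.A03G022400 was 83.4 ± 22 FPKM and its leaf level 1.12 ± 0.39 FPKM, so the tissue difference kept its direction.

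The photosystems and their electron carriers followed the leaf pattern. Of 102 tested photosystem and oxygen-evolving genes, 99 were called higher in leaf and 0 higher in root, with a median log2 difference of 5.29 against -0.02 over all genes. Their summed level was 12906, 13334 and 10240 FPKM in leaf and 99.7, 80.7 and 155 FPKM in root. Root y had the highest of the root sums. A plastocyanin family gene, Gohir.D05G185400 (D05:16432479-16432982), stood at 1348, 1519 and 1400 FPKM in leaf and 0, 0 and 1.53 FPKM in root (log2 difference 10.03 ± 0.37, adjusted p = 2.24e-06). Plastocyanin is the copper protein that carries electrons to photosystem I. PsbY of photosystem II, Gohir.D01G153400, stood at 642, 786 and 445 FPKM in leaf and 0, 0.145 and 0 FPKM in root (log2 difference 9.19 ± 0.22, adjusted p = 4.68e-07). Subunit XI of photosystem I, Gohir.D07G168100, was at 538 ± 89.2 FPKM in leaf and 1.96 ± 0.0893 FPKM in root, a difference of 274-fold (log2 difference 7.49 ± 0.18, adjusted p = 4.32e-07). The gene with an iron-sulfur binding domain Gohir.D02G213900 was at 1350, 1843 and 1568 FPKM in leaf and 0.267, 0.301 and 4.74 FPKM in root (log2 difference 9.54 ± 0.58, adjusted p = 1.82e-05). Again root y was the highest of the root libraries.

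Light harvesting proteins, which bind chlorophyll around the photosystems, were higher in leaf and uneven among the leaf libraries. Of 47 tested genes 46 were called higher in leaf and 0 higher in root, with a median log2 difference of 4.39. Their sum was 4041, 2704 and 1000 FPKM in leaf and 14, 13.1 and 23.1 FPKM in root. Leaf 3 had the lowest leaf sum and still lay far above every root library. The CP29.1 gene Gohir.A01G227800 (A01:119373701-119375235) showed the same order, with 313, 248 and 92 FPKM in leaf and 0.101, 0.19 and 0.512 FPKM in root (log2 difference 7.27 ± 0.44, adjusted p = 1.76e-05). The chlorophyll a-b binding gene Gohir.D01G217600 was at 378, 314 and 97.2 FPKM in leaf and 2.71, 2 and 3.7 FPKM in root (log2 difference 5.92 ± 0.50, adjusted p = 8.35e-05). The spread among leaf libraries was not shared by Rubisco, whose summed small-subunit level was 16970, 19127 and 18751 FPKM.

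Most enzymes that use and recycle fixed carbon were higher in leaf. The 8 tested genes of the Calvin cycle list, which includes Rubisco activase, were all called higher in leaf. Rubisco activase Gohir.D06G171700 (D06:60293881-60297358), which keeps Rubisco active, was at 518, 605 and 726 FPKM in leaf and 0.0995, 0.0749 and 2.63 FPKM in root (log2 difference 8.56 ± 0.47, adjusted p = 1.19e-05). Sedoheptulose-1,7-bisphosphatase Gohir.D10G243000 was at 217, 227 and 277 FPKM in leaf and at 0, 0 and 0.0822 FPKM in root (log2 difference 7.87 ± 0.14, adjusted p = 3.56e-07). Of 24 tested photorespiration genes, which recover carbon when Rubisco reacts with oxygen, 16 were called higher in leaf and 4 higher in root (median 2.06). The glycolate-oxidising enzyme GLO1, Gohir.A01G040900, stood at 301, 412 and 457 FPKM in leaf and was listed at 0 in every root library (log2 difference 8.59 ± 0.18, adjusted p = 3.56e-07). The H protein of glycine cleavage showed both directions. Its gene Gohir.D03G170100 (D03:54295762-54297424) stood at 228, 229 and 269.7 FPKM in leaf and was listed at 0 in root (log2 difference 7.92 ± 0.13, adjusted p = 3.56e-07). The gene Gohir.D12G045500 (D12:7158342-7161577) stood at 2.19, 0.983 and 1.28 FPKM in leaf and 12.4, 20.9 and 11.6 FPKM in root, 10.1-fold higher in root (log2 difference -2.67 ± 0.27, adjusted p = 0.000201).

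Most pigment synthesis genes were higher in leaf. Of 51 tested chlorophyll and carotenoid genes, 36 were called higher in leaf and 5 higher in root (median 2.19). Lycopene epsilon cyclase Gohir.A05G031300, at the branch to lutein, was at 29.2 ± 3.41 FPKM in leaf and 0.104 ± 0.133 FPKM in root (log2 difference 4.78 ± 0.16, adjusted p = 1.30e-06). Protochlorophyllide reductase Gohir.D05G359200, which makes chlorophyllide in light, was at 55, 27.4 and 2.94 FPKM in leaf and listed at 0 in root (log2 difference 4.21 ± 0.88, adjusted p = 0.00649). Its leaf libraries spread widely, with leaf 3 the lowest, as for light harvesting. A gene with a squalene and phytoene synthase domain, Gohir.D06G111500, went the other way, with 0.71, 0.786 and 0.948 FPKM in leaf and 3.5, 14.5 and 12.5 FPKM in root (log2 difference -2.44 ± 0.45, adjusted p = 0.00359).

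**Figure D2:**
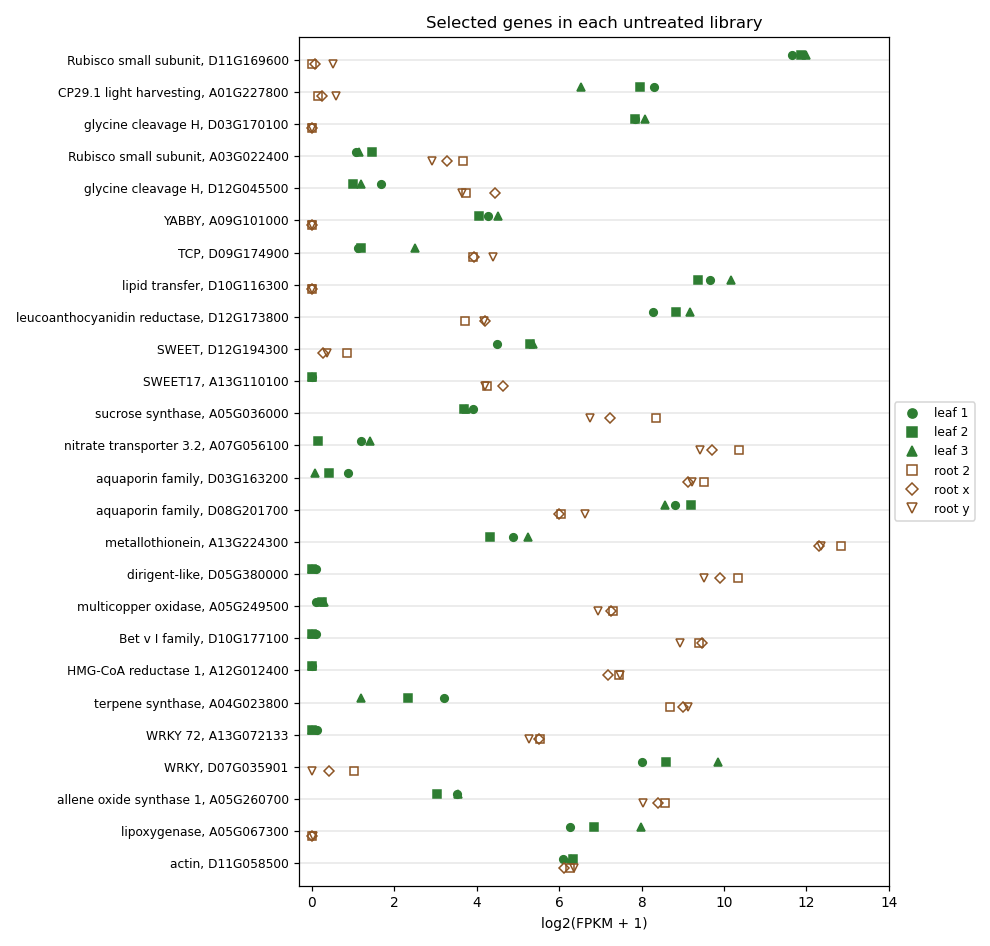
Levels of 26 genes named in the text in each untreated library, as log2(FPKM + 1) on the x axis; filled green symbols are leaf libraries and open brown symbols root libraries, with a shape for each library. Leaf and root libraries are separated for 25 of the genes and overlap for actin, and Rubisco small subunit and glycine cleavage H each have a leaf-high and a root-high gene.

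Some regulators of leaf form were also higher in leaf. YABBY factors set the lower face of leaf blades in Arabidopsis. The 26 listed genes summed to 263, 164 and 151 FPKM in leaf and 0.199, 0.356 and 0.252 FPKM in root. The 17 tested genes therefore passed the filter through leaf alone. All 17 were called higher in leaf, a direction fixed by that filter. The gene Gohir.A09G101000 (A09:66946894-66953120) stood at 18.5, 15.7 and 22 FPKM in leaf and was listed at 0 in root (log2 difference 4.29 ± 0.16, adjusted p = 2.04e-06). The gene Gohir.D09G100400 (D09:38857187-38863260) stood at 17.6, 16 and 21.3 FPKM in leaf and 0.0553, 0.166 and 0.0562 FPKM in root (log2 difference 4.14 ± 0.15, adjusted p = 2.06e-06). In stem before treatment these genes were at 0.56 ± 0.199 and 0.222 ± 0.188 FPKM.

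TCP factors control cell division in leaf margins and buds. Of 54 tested, 32 were called higher in leaf and 10 higher in root (median 0.92). Gohir.A09G008900 was at 12.4, 16.4 and 15 FPKM in leaf and 0, 0 and 0.25 FPKM in root (log2 difference 3.85 ± 0.17, adjusted p = 4.48e-06). Gohir.A01G058800 was at 32.4 ± 5.01 FPKM in leaf and 2.76 ± 1.03 FPKM in root, 11.7-fold higher in leaf (log2 difference 3.17 ± 0.22, adjusted p = 2.85e-05). The TCP gene Gohir.D09G174900 was 6.7-fold higher in root, with 1.19, 1.3 and 4.71 FPKM in leaf and 14.1, 14.3 and 19.9 FPKM in root (log2 difference -2.46 ± 0.38, adjusted p = 0.0015).

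Among CONSTANS-like and B-box factors, a family tied to light and day length in Arabidopsis, 41 of 92 tested were called higher in leaf and 18 higher in root. Gohir.D09G048500 of this family was at 33.7, 55.6 and 19.5 FPKM in leaf and listed at 0 in root (log2 difference 5.10 ± 0.34, adjusted p = 2.81e-05). Homeobox factors were called in both directions, 64 higher in leaf and 50 higher in root of 186 (34.4% and 26.9%), and calls past 2 log2 units numbered 23 in leaf and 4 in root. Gohir.A12G104200, described as ANTHOCYANINLESS 2, a factor of the epidermis in Arabidopsis, was at 34.2 ± 4.91 FPKM in leaf and 0.736 ± 0.134 FPKM in root (log2 difference 4.33 ± 0.15, adjusted p = 1.66e-06).

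The lipid transfer list and the suberin and cutin list were called in both directions, and some lipid transfer genes were very abundant in leaf. Lipid transfer proteins carry lipids across the wall to the cuticle, and this list was divided: 29 of 79 tested genes were called higher in leaf and 42 higher in root (median -1.15). The median was 1.31 among members with at least 5 FPKM in at least 3 libraries, and the sums overlapped (3341, 2843 and 3709 FPKM in leaf, 3160, 2022 and 2102 FPKM in root). Gohir.A10G150100 (A10:87216884-87217627) was at 1018, 785 and 1279 FPKM in leaf and 2.73, 2.38 and 5.19 FPKM in root, 299-fold higher in leaf (log2 difference 7.88 ± 0.30, adjusted p = 2.29e-06). Gohir.D10G116300 lies in a run of 3 such genes on D10 (D10:19176628-19217934) that summed to 1078 ± 298 FPKM in leaf and 0.140 ± 0.242 FPKM in root. Of 49 tested suberin and cutin enzymes, 23 were called higher in leaf and 14 higher in root (median 0.61). Gohir.D13G195400, a fatty acid elongase family member of this list, was at 64, 106 and 54.6 FPKM in leaf and 0.0881, 0.0442 and 0.0597 FPKM in root (log2 difference 6.10 ± 0.24, adjusted p = 2.78e-06). Fatty acyl-CoA reductase 3 Gohir.A08G004500, which makes fatty alcohols, was listed at 0 in leaf and stood at 7.51, 11.6 and 16.9 FPKM in root (log2 difference -3.64 ± 0.27, adjusted p = 4.01e-05).

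Most flavonoid enzymes were higher in leaf. Of 37 tested genes 27 were called higher in leaf and 5 higher in root (median 2.35), and the sums were 2332 ± 659.9 FPKM in leaf and 342 ± 59.6 FPKM in root, 6.81-fold apart. Leucoanthocyanidin reductase Gohir.D12G173800 (D12:51604692-51607796), which makes catechin for condensed tannins, was at 311, 456 and 581 FPKM in leaf and 12.2, 17.3 and 17 FPKM in root, 29-fold higher in leaf (log2 difference 4.74 ± 0.29, adjusted p = 1.60e-05). Chalcone synthase family gene Gohir.D10G144300, of the entry step, was at 138, 233 and 278 FPKM in leaf and 8.62, 16.2 and 10.3 FPKM in root (log2 difference 4.08 ± 0.33, adjusted p = 6.63e-05). Flavanone 3-hydroxylase Gohir.A12G059400, described as naringenin dioxygenase, was 12.3-fold higher in leaf (349 ± 132 against 28.4 ± 13.6 FPKM, log2 difference 3.59 ± 0.42, adjusted p = 0.000406). These genes stood lowest in leaf 1 and highest in leaf 3 among leaf libraries. Flavonoid 3',5'-hydroxylase Gohir.D03G157200 was 11.3-fold higher in root, with 4.79, 1.42 and 0.0764 FPKM in leaf and 24.1, 15 and 31.8 FPKM in root (log2 difference -3.26 ± 0.59, adjusted p = 0.00332).

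Most starch genes were higher in leaf, and sucrose genes were divided. Of 38 tested starch genes 27 were called higher in leaf and 6 higher in root, and the sums of 331, 353 and 351 FPKM in leaf and 113, 122 and 112 FPKM in root were even within each tissue. Starch synthase 4 Gohir.A10G038700, which starts starch granules, was at 16.9, 16.8 and 21.7 FPKM in leaf and 0.0526, 0.0132 and 0.0356 FPKM in root (log2 difference 4.22 ± 0.15, adjusted p = 1.80e-06). Alpha-glucan water dikinase Gohir.D01G150200, which opens starch to breakdown, was 5.73-fold higher in leaf (30.2 ± 2.11 against 5.28 ± 0.511 FPKM, log2 difference 2.32 ± 0.13, adjusted p = 1.24e-05).

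Sucrose synthases split sucrose in tissues that import it. The gene Gohir.A05G036000 (A05:3647535-3652119) was at 14, 11.9 and 12.5 FPKM in leaf and 325, 151 and 107 FPKM in root, 15.2-fold higher in root (log2 difference -3.66 ± 0.39, adjusted p = 0.000258), and it spread most among the root libraries. Gohir.A05G248566 was higher in leaf, at 25 ± 5.1 against 0.0313 ± 0.0156 FPKM (log2 difference 4.64 ± 0.17, adjusted p = 2.16e-06). Its description names a sucrose phosphate phosphatase domain as well, so it may not be an enzyme that splits sucrose. SWEET transporters, which let sugar out of cells, had 10 members called higher in leaf and 10 in root of 23. Gohir.D12G194300 was at 21.5, 38.3 and 40.5 FPKM in leaf and 0.814, 0.216 and 0.292 FPKM in root (log2 difference 4.55 ± 0.28, adjusted p = 1.89e-05). SWEET17 Gohir.A13G110100 was listed at 0 in leaf and stood at 18.1, 23.9 and 17.5 FPKM in root (log2 difference -4.37 ± 0.16, adjusted p = 1.94e-06). In Arabidopsis SWEET17 moves fructose across the vacuole membrane.

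Expansins and pectin enzymes were more often called higher in leaf than in root. Of 47 tested expansins, which loosen walls, 23 (48.9%) were called higher in leaf and 11 (23.4%) higher in root. Of 69 tested pectin enzymes 33 (47.8%) were called higher in leaf and 11 (15.9%) higher in root. Over all tested genes the shares were 25.3% and 24.5%, so the root shares were near or under that of all genes. The expansin Gohir.D04G012150 was at 102, 266 and 35.7 FPKM in leaf and 0, 0.143 and 0 FPKM in root (log2 difference 6.58 ± 0.64, adjusted p = 0.000165), with leaf 3 the lowest leaf library. The expansin Gohir.D08G183400 was 24.3-fold higher in root, at 4.07, 1.58 and 3.93 FPKM in leaf and 18.4, 112 and 103 FPKM in root (log2 difference -3.93 ± 0.68, adjusted p = 0.00275), with root 2 well under the other root libraries. The pectate lyase Gohir.D12G190100 was 33.4-fold higher in leaf (152 ± 70.6 against 4.56 ± 2.54 FPKM, log2 difference 4.77 ± 0.43, adjusted p = 0.000114).

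Xyloglucan endotransglucosylases, which cut and rejoin wall xyloglucan, had more genes called higher in root, 24 against 9 of 43 tested (median -1.40). The family held genes near 0 in either tissue. Gohir.A02G148400 stood at 89.5, 95.2 and 114 FPKM in leaf and was listed at 0 in root (log2 difference 6.64 ± 0.14, adjusted p = 3.56e-07), while Gohir.D02G099900 was at 0.875, 0.347 and 0.846 FPKM in leaf and 254, 167 and 75.2 FPKM in root (log2 difference -6.47 ± 0.42, adjusted p = 2.48e-05). The cellulose synthase family was called in both directions, 26 and 22 of 71, and its sums did not separate the tissues (703 ± 47.8 FPKM in leaf, 706 ± 84.5 FPKM in root).

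**Figure D3:**
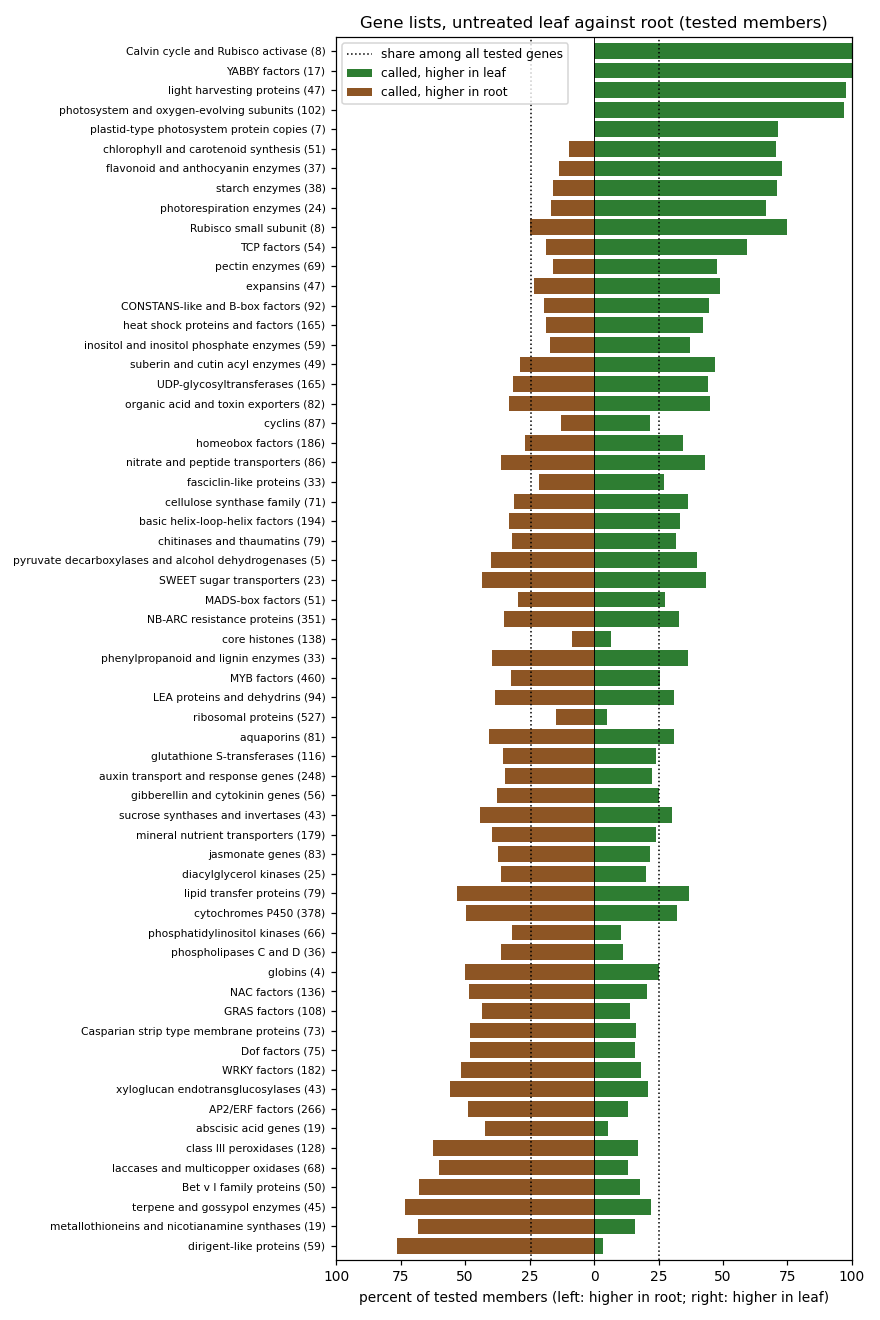
For 62 gene lists made from description words, bars give the percent of tested members (number in brackets) called higher in leaf (green, right) and higher in root (brown, left), and dotted lines mark 25.3% and 24.5% among all tested genes. Photosynthesis lists and YABBY factors stand at the leaf end and dirigent-like proteins, metallothioneins and terpene enzymes at the root end. The tested YABBY factors passed the filter through leaf alone.

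Uptake genes were among those with the largest root excess. High-affinity nitrate transporter 3.2 is the partner protein that high-affinity nitrate carriers need. Its A copy Gohir.A07G056100 (A07:7487516-7488637) was at 1.29, 0.104 and 1.65 FPKM in leaf and 1315, 834 and 683 FPKM in root (log2 difference -8.91 ± 0.39, adjusted p = 4.52e-06). Its D copy Gohir.D07G060400 (D07:6831474-6832657) was at 0.797, 0.342 and 2.15 FPKM in leaf and 850.2, 503 and 379 FPKM in root (log2 difference -8.12 ± 0.40, adjusted p = 7.16e-06). Both copies stood highest in root 2 and lowest in root y, and how reads that fit both copies were counted is not known. Of 179 tested nutrient transporters 71 (39.7%) were called higher in root and 43 (24.0%) higher in leaf, against 24.5% and 25.3% of all tested genes. The leaf share was thus near that of all genes. Sums of the list were 3944 ± 834 FPKM in root and 1438 ± 43.9 FPKM in leaf, 2.74-fold apart. Calls past 2 log2 units numbered 37 in root and 13 in leaf.

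Nitrate and peptide transporters of the POT family were nearly balanced, with 37 called higher in leaf and 31 higher in root of 86. The POT gene Gohir.D06G139900 was listed at 0 in leaf and stood at 22.1, 61.7 and 44.1 FPKM in root (log2 difference -5.33 ± 0.34, adjusted p = 2.32e-05). NRT1/PTR family 5.6 Gohir.A12G160000 was at 36.1, 53.8 and 83 FPKM in leaf and 0.23, 0.756 and 0.525 FPKM in root (log2 difference 5.22 ± 0.30, adjusted p = 1.50e-05). DETOXIFICATION 43 Gohir.D08G165400, of a family that exports citrate and toxins, was at 0, 0.0225 and 0.023 FPKM in leaf and 27.6, 9.88 and 11.5 FPKM in root (log2 difference -3.95 ± 0.35, adjusted p = 0.000111).

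Aquaporins, the water channels, were divided gene by gene. Of 81 tested 33 were called higher in root and 25 higher in leaf, with a median of 0.05, but calls past 2 log2 units numbered 30 in root and 12 in leaf, and the sums were 6025 ± 957 FPKM in root and 2593 ± 826 FPKM in leaf. The median was -0.10 without leaf 1, -0.08 without leaf 2 and -0.12 without root 2, and it was -0.47 among members with at least 5 FPKM in at least 3 libraries. Gohir.D03G163200 (D03:53144719-53146961) was at 0.84, 0.341 and 0.0499 FPKM in leaf and 735, 556 and 596 FPKM in root (log2 difference -8.83 ± 0.24, adjusted p = 6.00e-07). Gohir.A03G007800 (A03:1725210-1727429) was at 0, 0 and 0.103 FPKM in leaf and 774, 399 and 407 FPKM in root (log2 difference -8.92 ± 0.27, adjusted p = 9.83e-07). The reverse held for Gohir.D08G201700 (D08:61197917-61200273), with 447, 586 and 378 FPKM in leaf and 65.5, 63.1 and 98.6 FPKM in root, 6.21-fold higher in leaf (log2 difference 2.62 ± 0.30, adjusted p = 0.000317).

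Metallothioneins bind metal ions, and their transcripts were the most abundant of any root list described here apart from ribosomal proteins. Together with nicotianamine synthases, which make a metal chelator, 13 of 19 tested genes were called higher in root and 3 higher in leaf, and the sums were 12516 ± 2549 FPKM in root and 1361 ± 509 FPKM in leaf. Gohir.A13G224300 (A13:110719832-110721703) was at 28.5, 19.1 and 36.9 FPKM in leaf and 7311, 5078 and 5204 FPKM in root, 208-fold higher in root (log2 difference -7.68 ± 0.35, adjusted p = 4.83e-06). The type 3 gene Gohir.D05G356800 was 11.6-fold higher in leaf, at 263, 245 and 726 FPKM in leaf and 49.8, 34 and 22.8 FPKM in root (log2 difference 3.38 ± 0.49, adjusted p = 0.00114), with leaf 3 the highest.

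Dirigent proteins steer the coupling of phenolic radicals into lignans and, in Arabidopsis, help place lignin in the root barrier. Of 59 tested genes 45 were called higher in root and 2 higher in leaf (median -2.76). The sums were 3763, 3698 and 2909 FPKM in root and 201, 100.2 and 65 FPKM in leaf, 28.3-fold apart in their means. Within D05:65208592-65284884, 5 of 8 dirigent-like genes were at 10 FPKM or more in every root library and under 1 FPKM in every leaf library, and together they reached 2152 ± 257 FPKM in root and 0.247 ± 0.215 FPKM in leaf. The members differed in level: Gohir.D05G379200 was at 444, 597 and 484 FPKM in root, and, among genes chosen after their values were seen, Gohir.D05G379500 was at 153, 137 and 185, Gohir.D05G379700 at 388, 442 and 419 and Gohir.D05G379800 at 90.2, 77.7 and 51.9 FPKM. Gohir.D05G379200, Gohir.D05G379700 and Gohir.D05G379800 were listed at 0 in every leaf library.

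Runs of at least 3 genes of the same description, each within 100 kb of the next and each confined to a tissue by these thresholds, occurred elsewhere too. The 5 genes described as Dirigent protein 4 on A04 (A04:946451-1013942) summed to 398 ± 37.4 FPKM in root and 0.0582 ± 0.101 FPKM in leaf. The 4 genes described as Cytosolic sulfotransferase 16 on D03 (D03:5435658-5510682), which add sulfate to small molecules, summed to 166 ± 65.9 FPKM in root and 0.0693 ± 0.0642 FPKM in leaf. The gene Gohir.D03G041400 of this run, chosen after its values were seen, was listed at 0 in leaf and stood at 24.8, 18.6 and 12.6 FPKM in root (log2 difference -4.25 ± 0.24, adjusted p = 1.12e-05). On D05, 4 of 6 multicopper oxidases (D05:23813266-23884484) summed to 262 ± 48.1 FPKM in root and 0.607 ± 0.339 FPKM in leaf. Among leaf genes, runs of 3 PsbX genes on A13 (A13:106898842-106907301) and D13 (D13:60335520-60344131) summed to 176 ± 75.4 and 200 ± 73.3 FPKM in leaf. Neighbours with like sequence can share reads, so the split within a run is uncertain.

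Oxidative wall enzymes had more genes called higher in root, while some abundant members were higher in leaf. Laccases and other multicopper oxidases, which oxidise lignin precursors, had 41 genes called higher in root and 9 in leaf of 68 tested (median -1.36), with sums of 1987 ± 428 FPKM in root and 542 ± 37.5 FPKM in leaf. Gohir.A05G249500 (A05:27340045-27342973) was at 0.0698, 0.194 and 0.224 FPKM in leaf and 158, 151 and 123 FPKM in root (log2 difference -6.96 ± 0.15, adjusted p = 3.56e-07). Gohir.D05G249900 was at 0.184, 0.0721 and 0.0739 FPKM in leaf and 153, 128 and 80.4 FPKM in root (log2 difference -6.73 ± 0.24, adjusted p = 1.78e-06). Of 128 tested class III peroxidases, which act on the same precursors, 80 were called higher in root and 22 higher in leaf (median -1.82). Their sums nevertheless overlapped, at 3031, 3157 and 2418 FPKM in root and 2644, 2780 and 2740 FPKM in leaf. Peroxidase N Gohir.A08G078800 was listed at 0 in leaf and stood at 177, 70.7 and 61.6 FPKM in root (log2 difference -6.53 ± 0.37, adjusted p = 1.42e-05). Peroxidase 42 Gohir.A05G170100 was 3.6-fold higher in leaf, at 529, 727 and 528 FPKM in leaf and 175, 161 and 159.5 FPKM in root (log2 difference 1.83 ± 0.27, adjusted p = 0.00121). In the dirigent list, the gene Gohir.A01G156000 ran against the rest, with 36.2, 13.7 and 10.9 FPKM in leaf and 0 listed in root (log2 difference 4.23 ± 0.40, adjusted p = 0.000149).

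Casparian strip membrane proteins make the scaffold on which the root endodermis places lignin, and the wider family acts elsewhere too. Of 73 tested genes 35 were called higher in root and 12 higher in leaf (median -0.49), while the sums overlapped (472, 441 and 575 FPKM in root and 419, 470.1 and 489 FPKM in leaf). Gohir.D09G234600 (D09:53244159-53246282), described by the family's domain DUF588, was at 1.27, 0.885 and 1.01 FPKM in leaf and 78.1, 80.5 and 125 FPKM in root, 89.5-fold higher in root (log2 difference -5.51 ± 0.21, adjusted p = 2.16e-06). With the same description, Gohir.A01G040500 (A01:3550833-3551842) was at 78.4, 100.3 and 89.5 FPKM in leaf and 0, 0 and 0.128 FPKM in root (log2 difference 6.43 ± 0.14, adjusted p = 3.79e-07). The general phenylpropanoid and lignin enzymes were evenly called, 13 higher in root and 12 higher in leaf of 33.

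Proteins of the Bet v I family, which bind small ligands and include pathogenesis-related proteins, were mostly higher in root. Of 50 tested genes 34 were called higher in root and 9 higher in leaf (median -2.47), and the sums were 8237, 9179 and 8371 FPKM in root and 1000, 795 and 899.8 FPKM in leaf, 9.57-fold apart in their means. Gohir.D10G177100 (D10:52247816-52248704) was at 0.065, 0 and 0 FPKM in leaf and 667, 701 and 491 FPKM in root (log2 difference -9.23 ± 0.17, adjusted p = 3.56e-07). Gohir.A10G170000 (A10:100156150-100157012) was at 73.4, 26.4 and 58.7 FPKM in leaf and 1360, 1462 and 1351 FPKM in root, 26.3-fold higher in root (log2 difference -4.81 ± 0.40, adjusted p = 7.44e-05). The MLP-like protein 423 Gohir.D01G130000 was a leaf gene of the family, with 51.2, 85.3 and 43.2 FPKM in leaf and 0, 0 and 0.0668 FPKM in root (log2 difference 5.84 ± 0.25, adjusted p = 3.71e-06). Other defence families were not one-sided. Chitinases and thaumatins were called in equal numbers, 25 each of 79, and NB-ARC resistance proteins, which sense pathogens inside the cell, had 115 genes called higher in leaf and 122 higher in root of 351.

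Isoprenoid and terpene genes were higher in root in most cases. Of 45 tested 33 were called higher in root and 10 higher in leaf (median -2.24), and the sums were 2210, 2377 and 2225 FPKM in root and 407, 243 and 513 FPKM in leaf. HMG-CoA reductase commits carbon to the mevalonate route. Its gene Gohir.A12G012400 (A12:1598661-1601070) was listed at 0 in leaf and stood at 175, 143 and 176 FPKM in root (log2 difference -7.37 ± 0.13, adjusted p = 3.56e-07). The gene Gohir.D02G192700 of the same description was at 3.07, 3.37 and 24.1 FPKM in leaf and 243, 189 and 192 FPKM in root (log2 difference -4.76 ± 0.67, adjusted p = 0.00101), with leaf 3 the highest of the leaf libraries. The terpene synthase Gohir.A04G023800 (A04:4145402-4148401) was at 8.28, 4.05 and 1.3 FPKM in leaf and 414, 511 and 557 FPKM in root, 109-fold higher in root (log2 difference -6.69 ± 0.48, adjusted p = 3.73e-05).

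A terpene gene was higher in leaf. Geranyllinalool synthase Gohir.A05G162800, of a route to a volatile in Arabidopsis, was at 40.4, 52.6 and 241 FPKM in leaf and 0.273, 1.39 and 0.485 FPKM in root (log2 difference 5.62 ± 0.65, adjusted p = 0.000377), and leaf 3 again stood highest. Cytochromes P450, which oxidise terpenes among many substrates, were called higher in root for 188 and higher in leaf for 121 of 378 tested genes. The P450 71D10 gene Gohir.A13G134200 was at 15.4, 1.9 and 0.45 FPKM in leaf and 438, 262 and 487 FPKM in root (log2 difference -6.55 ± 0.83, adjusted p = 0.0006). A dioxygenase gene, Gohir.D13G210500, was at 0.369, 0 and 0.132 FPKM in leaf and 582, 602 and 526 FPKM in root (log2 difference -8.94 ± 0.17, adjusted p = 3.56e-07). UDP-glycosyltransferases leaned the other way, with 73 called higher in leaf and 52 higher in root of 165. A gene of unknown function with the domain DUF2775, Gohir.D04G164160 (D04:54948241-54949116), was among the 10 largest root excesses, at 0.066, 0 and 0.635 FPKM in leaf and 820.2, 1209 and 889.8 FPKM in root (log2 difference -9.64 ± 0.25, adjusted p = 5.54e-07).

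**Figure D4:**
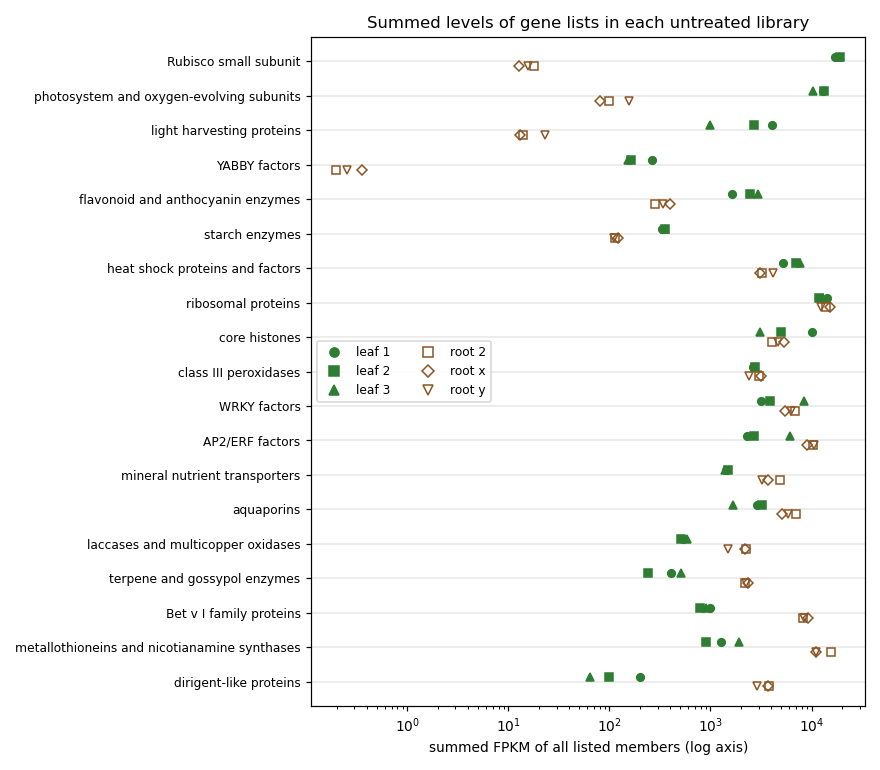
Summed FPKM of 19 gene lists in each untreated library, on a log axis; filled green symbols are leaf libraries and open brown symbols root libraries. Light harvesting and core histone sums spread most among leaf libraries, leaf 3 (triangle) is the highest leaf library for WRKY and AP2/ERF factors, and peroxidase and ribosomal protein sums overlap.

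Several families of transcription factors tied to defence and stress had more genes called higher in root than in leaf. For WRKY factors the numbers were 94 in root and 33 in leaf of 182 tested (median -0.86), for NAC factors 66 and 28 of 136 (median -0.59), and for AP2/ERF factors 130 and 35 of 266 (median -0.84). The leaf libraries were uneven here. The NAC sum was 1519, 1469 and 3019 FPKM in leaf and 3191, 3130 and 3175 FPKM in root. The WRKY sum was 3129, 3867 and 8458 FPKM in leaf and 6907, 5481 and 6300 FPKM in root, and the AP2/ERF sum was 2303, 2717 and 6128 FPKM in leaf and 10422, 8938 and 10489 FPKM in root. Leaf 3 exceeded the root libraries in summed WRKY level and was the leaf library nearest to them in NAC and AP2/ERF level. Without leaf 3 the medians were -0.89 for WRKY, -0.68 for NAC and -1.02 for AP2/ERF factors, the same direction as with it.

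Single factors of these families showed both patterns. WRKY 72 gene Gohir.A13G072133 (A13:17722481-17728260) was at 0.0993, 0 and 0 FPKM in leaf and 45.6, 44.5 and 37.4 FPKM in root (log2 difference -5.39 ± 0.14, adjusted p = 5.18e-07). The WRKY gene Gohir.D07G035901 (D07:3876361-3877865) was at 259, 384 and 919.6 FPKM in leaf and 1.05, 0.338 and 0 FPKM in root (log2 difference 8.33 ± 0.48, adjusted p = 1.52e-05). The leaf level of the latter was highest in leaf 3. The NAC gene Gohir.D11G249900 was 25.9-fold higher in root (2.44 ± 0.746 against 63 ± 10.7 FPKM, log2 difference -4.23 ± 0.21, adjusted p = 7.14e-06). Ethylene-responsive factor 2 Gohir.A11G075700 was at 1.22, 0.679 and 0.348 FPKM in leaf and 88.1, 78.8 and 39.9 FPKM in root (log2 difference -5.27 ± 0.33, adjusted p = 2.06e-05). The most abundant AP2 gene named by the rule, Gohir.A11G009200, was at 27.2, 22.6 and 207 FPKM in leaf and 529, 551 and 597 FPKM in root (log2 difference -3.44 ± 0.79, adjusted p = 0.00981), with leaf 3 well above the other leaf libraries and still under every root library.

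GRAS and Dof factors also had more genes called higher in root. The numbers called were 47 in root and 15 in leaf of 108 for GRAS factors, and 36 and 12 of 75 for Dof factors. Scarecrow-like protein 8 Gohir.A09G042600 was 28.9-fold higher in root, at 2.6, 1.92 and 3.72 FPKM in leaf and 75, 73.7 and 89.2 FPKM in root (log2 difference -4.44 ± 0.20, adjusted p = 4.65e-06). The Dof gene Gohir.A07G136300 was 46.2-fold higher in root (1.23 ± 0.781 against 56.6 ± 13.1 FPKM, log2 difference -4.72 ± 0.28, adjusted p = 1.57e-05). MYB factors were called higher in root for 149 and in leaf for 117 of 460, and basic helix-loop-helix factors for 64 and 65 of 194. Those are 32.4% in root and 25.4% in leaf for MYB factors and 33% and 33.5% for the latter, against 24.5% and 25.3% of all tested genes, the leaf share of MYB factors being near that of all genes.

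The helix-loop-helix gene Gohir.D01G014800 was at 0.198, 0.309 and 0.686 FPKM in leaf and 143, 97.5 and 135 FPKM in root (log2 difference -6.49 ± 0.20, adjusted p = 1.10e-06). The most abundant helix-loop-helix genes, Gohir.A08G156400 and Gohir.D08G176900, were 4.48-fold and 4.25-fold higher in root. Their root levels of 341, 327 and 344 and 452, 439.6 and 486 FPKM were even, against 62.7, 66.6 and 96.5 and 89.5, 96.4 and 139 FPKM in leaf, and limma gave an adjusted p of 0.000347 and 0.000574. MYB44 Gohir.A11G220200, a stress-related factor in Arabidopsis, was 4.51-fold higher in root (57.3 ± 27 against 258 ± 37 FPKM, log2 difference -2.24 ± 0.34, adjusted p = 0.00141). The MADS-box gene Gohir.A06G030400, with a K-box, was at 0.136, 0.0474 and 0.0486 FPKM in leaf and 15, 14.3 and 10.1 FPKM in root (log2 difference -3.69 ± 0.18, adjusted p = 6.63e-06).

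Hormone genes were called in both directions. Abscisic acid closes stomata under drought, and of 19 tested genes 8 were called higher in root and 1 higher in leaf. The receptor PYL4 Gohir.A09G167500 was 27-fold higher in root, at 3.84, 6.57 and 1.7 FPKM in leaf and 127, 81.8 and 117 FPKM in root (log2 difference -4.54 ± 0.38, adjusted p = 7.83e-05). Abscisic acid 8'-hydroxylase 3 Gohir.A12G062800, which breaks the hormone down, was at 0, 0.0301 and 0.0309 FPKM in leaf and 16.2, 51.1 and 64.6 FPKM in root (log2 difference -5.25 ± 0.47, adjusted p = 0.000108), with root 2 the lowest root library. Of 248 tested auxin genes 86 (34.7%) were called higher in root and 56 (22.6%) higher in leaf, against 24.5% and 25.3% of all tested genes, the leaf share being near that of all genes. The auxin-responsive gene Gohir.A12G141000 was 20.6-fold higher in root (8.81 ± 3.35 against 182 ± 31.6 FPKM, log2 difference -4.26 ± 0.29, adjusted p = 2.62e-05).

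Jasmonate is made from fatty acids by lipoxygenase and allene oxide synthase. Of 83 tested genes 31 (37.3%) were called higher in root and 18 (21.7%) higher in leaf. The sums were 1367, 1374 and 2303 FPKM in leaf and 5004, 4813 and 2969 FPKM in root, with leaf 3 the highest leaf library and root y the lowest root library, and they did not overlap. Allene oxide synthase 1 Gohir.A05G260700 (A05:29073810-29075644) was at 10.4, 7.24 and 10.7 FPKM in leaf and 381, 338 and 259.6 FPKM in root, 34.5-fold higher in root (log2 difference -4.97 ± 0.23, adjusted p = 5.34e-06). Lipoxygenases differed among themselves. Gohir.A05G067300 was at 76.4, 114 and 253 FPKM in leaf and 0, 0 and 0.0201 FPKM in root (log2 difference 7.03 ± 0.40, adjusted p = 1.36e-05), whereas Gohir.D10G056600 was 4.64-fold higher in root, at 49.3, 38 and 127 FPKM in leaf and 394, 349 and 252 FPKM in root (log2 difference -2.37 ± 0.46, adjusted p = 0.00472). Leaf 3 was the highest leaf library for both lipoxygenases.

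Gibberellin and cytokinin genes were called higher in root for 21 and in leaf for 14 of 56 (37.5% and 25%). Over all tested genes the shares were 24.5% and 25.3%, so the leaf share was near that of all genes. The gibberellin receptor GID1B Gohir.A11G119000 was 17.6-fold higher in root, at 8.14, 8.23 and 10.1 FPKM in leaf and 162, 145 and 158 FPKM in root (log2 difference -3.99 ± 0.16, adjusted p = 2.69e-06). A gibberellin-regulated protein gene, Gohir.A07G122100, was at 466, 800.1 and 575 FPKM in leaf and 0.156, 0.411 and 0.0793 FPKM in root (log2 difference 8.96 ± 0.23, adjusted p = 5.34e-07).

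Stress proteins were already unequal before treatment. Of 165 tested heat shock genes, whose products protect other proteins, 70 were called higher in leaf and 31 higher in root, and the sums were 6635 ± 1250 FPKM in leaf and 3483 ± 588 FPKM in root. The chloroplastic small heat shock genes Gohir.A04G137700 (A04:88144263-88145750) and Gohir.D04G180900 (D04:56899968-56901348) were at 79.7, 84.9 and 143 and 38, 47.9 and 63.9 FPKM in leaf and 1.93, 0.889 and 3.27 and 0.171, 0.043 and 0.29 FPKM in root (log2 differences 5.12 ± 0.35 and 5.42 ± 0.21, adjusted p = 2.95e-05 and 2.28e-06). The Hsp70 gene Gohir.A06G177000 was 2.12-fold higher in leaf (log2 difference 1.06 ± 0.32, adjusted p = 0.0289), a call that did not pass without leaf 2, root 2 or root x (adjusted p = 0.0881, 0.0923 and 0.0922). LEA proteins, which protect drying cells, were called higher in root for 36 and in leaf for 29 of 94 tested genes (38.3% and 30.9%). Their sums were 2719, 2922 and 5631 FPKM in leaf and 8955, 6105 and 7627 FPKM in root, with leaf 3 well above the other leaf libraries and under every root library. Lea5-A Gohir.A10G165300 was 8.12-fold higher in root, at 206, 115 and 161 FPKM in leaf and 1866, 646 and 1391 FPKM in root (log2 difference -2.92 ± 0.47, adjusted p = 0.00183), with root x the lowest root library.

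Most ribosomal protein, histone and cyclin genes were not called. Of 527 tested ribosomal protein genes 78 (14.8%) were called higher in root and 27 (5.12%) higher in leaf, against 24.5% and 25.3% of all tested genes. Calls past 2 log2 units ran the other way, 15 in leaf and 2 in root. The ribosomal protein sums overlapped (14122, 11888 and 12878 FPKM in leaf, 13833, 15108 and 12296 FPKM in root). Histones had 9 and 12 of 138 genes called higher in leaf and root (6.52% and 8.7%), and their leaf sums of 10034, 4977 and 3058 FPKM spread on both sides of the root sums of 4089, 5342 and 4610 FPKM. Cyclins, which drive the cell cycle, were called higher in leaf for 19 and higher in root for 11 of 87 (21.8% and 12.6%). The 5 most abundant described genes that met the interval rule above were an actin, a pair of ribosomal proteins and a pair of translation factors. Actin Gohir.D11G058500 was at 67.7, 79.3 and 77.7 FPKM in leaf and 76, 68.2 and 80.8 FPKM in root (log2 difference -0.00 ± 0.18, adjusted p = 0.995). Ribosomal protein S3-3 Gohir.D07G013900 was at 100.3 ± 12.8 FPKM in leaf and 100.1 ± 11 FPKM in root, S26-3 Gohir.D13G007100 at 82.2 ± 7.86 and 83.1 ± 12.6 FPKM, initiation factor 5A Gohir.D12G182600 at 69.5 ± 6.78 and 67.8 ± 2.24 FPKM, and an elongation factor Tu domain gene Gohir.A10G207601 at 68.9 ± 2.41 and 71.6 ± 1.79 FPKM.

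The phosphoinositide system, the theme of the series, differed moderately between the untreated tissues. Kinases add phosphates to phosphatidylinositol, phospholipase C cuts the result to release diacylglycerol and an inositol phosphate, and diacylglycerol kinase makes phosphatidic acid from the former. Of 66 tested phosphatidylinositol kinases 21 (31.8%) were called higher in root and 7 (10.6%) higher in leaf, against 24.5% and 25.3% of all tested genes (median -0.18). Of 36 phospholipases C and D 13 (36.1%) and 4 (11.1%) were called so (median -0.31), and of 25 diacylglycerol kinases 9 (36%) and 5 (20%), with a median of -0.21. Inositol and inositol phosphate enzymes had 22 genes (37.3%) called higher in leaf and 10 (16.9%) higher in root of 59 (median 0.19). Summed kinase levels were 363, 422 and 423 FPKM in leaf and 530.2, 489 and 545 FPKM in root, close to each other without overlapping.

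Among its enzymes, inositol-3-phosphate synthase Gohir.A02G132300 (A02:98967674-98970826), which makes the inositol ring, was 4.63-fold higher in leaf, at 165, 188 and 120.2 FPKM in leaf and 24.2, 47.9 and 30.1 FPKM in root (log2 difference 2.21 ± 0.31, adjusted p = 0.000863). The kinase gene Gohir.D10G052000, with a phosphatidylinositol-4-phosphate 5-kinase domain, was at 0.282, 0.231 and 0.559 FPKM in leaf and 9.64, 11.3 and 8.38 FPKM in root (log2 difference -2.99 ± 0.17, adjusted p = 1.37e-05). Phospholipase C gene Gohir.A05G088100 was at 0.14, 0.511 and 0.175 FPKM in leaf and 5.11, 7.07 and 5.51 FPKM in root (log2 difference -2.44 ± 0.19, adjusted p = 5.37e-05). Type I inositol polyphosphate 5-phosphatase 8 Gohir.A04G079600, which removes a phosphate from the products, was at 0.327, 0.25 and 0.349 FPKM in leaf and 13.8, 19.4 and 21.1 FPKM in root (log2 difference -3.85 ± 0.18, adjusted p = 5.43e-06). These 3 genes stood under 1 FPKM in every leaf library.

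Phospholipase D and diacylglycerol kinase both make phosphatidic acid. Phospholipase D zeta 1 Gohir.A11G270400 was listed at 0 in leaf and stood at 1.44, 3.87 and 1.14 FPKM in root (log2 difference -1.56 ± 0.31, adjusted p = 0.00484). The abundant phospholipase D gene Gohir.A10G074400 was at 119, 127 and 194 FPKM in leaf and 253, 274 and 159 FPKM in root, overlapping and not called (log2 difference -0.63 ± 0.32, adjusted p = 0.146), and it passed only without leaf 3 (adjusted p = 0.0424). Diacylglycerol kinase 5 Gohir.D13G064700 was 2.16-fold higher in root (21.4 ± 1.47 against 46.2 ± 9.1 FPKM, log2 difference -1.06 ± 0.18, adjusted p = 0.00255). The diacylglycerol kinase gene Gohir.A08G235000 was 1.94-fold higher in leaf, at 9.84, 16.3 and 10.9 FPKM in leaf and 6.92, 5.26 and 6.94 FPKM in root (log2 difference 0.83 ± 0.21, adjusted p = 0.0139), and it did not pass without root x (adjusted p = 0.0511) or in a fit of all 45 libraries (adjusted p = 0.0896).

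The A and D subgenomes had similar shares of calls. Of 22419 tested A genes 25.0% were called higher in leaf and 24.5% higher in root, and of 23214 tested D genes 25.6% and 24.5%. Matched copies were taken as genes of the same description, unique to each of the paired chromosomes and at a like place along them, which gave 4176 pairs, 3063 of them with both copies tested. In 1051 pairs both copies were called in the same direction, 616 to leaf and 435 to root, and in 24 pairs they were called in opposite directions (14 without leaf 2, and 14 without root 2). The tissue difference differed between the copies in 815 pairs (26.6%), in a limma test of that difference itself, with the larger leaf share in the A copy for 396 and in the D copy for 419. All 24 opposite pairs passed that test, which is no separate support, since it compares the same tissue differences in the same libraries. The scale used understates differences at low levels, so copies of unequal level but like fold difference can also pass it. With a pseudocount of 0.1 added to FPKM before the log, 673 pairs differed and 24 were called in opposite directions. How many of the 815 pairs reflect the scale was not tested. How reads that fit both copies were counted is not known, so these values are uncertain where copies are near-identical.

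**Figure D5:**
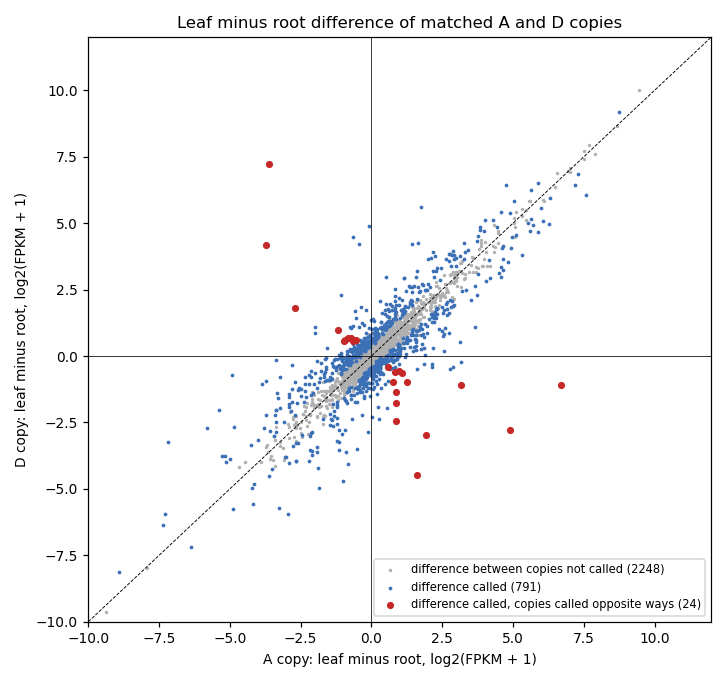
Leaf minus root log2 difference of the A copy (x axis) and the D copy (y axis) for 3063 pairs; grey pairs do not differ between copies by the test, blue and red pairs do, and red marks the 24 pairs called in opposite directions. Most pairs lie along the dashed line of equal differences.

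Opposite pairs named here were chosen after their values were seen. Of fructose-bisphosphate aldolases, which serve both sugar breakdown and the Calvin cycle, the A copy Gohir.A12G061000 (A12:14276882-14278837) was at 109.6, 105 and 100.4 FPKM in leaf and 0, 0 and 0.0844 FPKM in root. Its D copy Gohir.D12G061000 (D12:10977478-10980650) was at 0.346, 0.409 and 0.444 FPKM in leaf and 1.93, 2.02 and 1.93 FPKM in root. The difference between the copies was 7.77 ± 0.23 log2 units (adjusted p = 9.36e-08). Of genes described as the dioxygenase AOP1, the A copy Gohir.A13G205201 was at 2.14, 0.344 and 0 FPKM in leaf and 25.3, 19.2 and 16.8 FPKM in root, and the D copy Gohir.D13G210300 at 117, 57.1 and 31.8 and 3.11, 1.83 and 2.22 FPKM. That difference was -7.90 ± 0.18 log2 units (adjusted p = 1.99e-08).

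A resistance protein with TIR and NB-ARC domains had a leaf-higher A copy, Gohir.A11G298075, at 4.65, 5.7 and 7.46 FPKM in leaf and 1.59, 1.07 and 1.07 FPKM in root, and a root-higher D copy, Gohir.D11G312600, at 1.08, 1.43 and 2.08 and 58.7, 42.3 and 66.5 FPKM. The difference between these copies was 6.10 ± 0.21 log2 units (adjusted p = 1.65e-07). A putative phosphatase was at 82.8, 28.2 and 185 FPKM in leaf and 0.405, 4.07 and 1.46 FPKM in root for Gohir.A10G061800 and at 0.895, 0.222 and 2.37 and 13.1, 11.9 and 12.4 FPKM for Gohir.D10G062900, a difference of 7.65 ± 0.48 log2 units (adjusted p = 1.26e-05).

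The same tissues were compared in libraries taken after 180 min of PEG, which the comparison at 0 min did not use. Treatment, handling and hour of day differ from 0 min and cannot be told apart. There 27199 of the same 45711 genes (59.5%) were called, 13959 higher in leaf and 13240 higher in root. With each library divided by its own FPKM total the split was 21322 to 7991, and the median log2 difference of all genes moved from 0.01 to 0.51. Of the 22756 genes called at 0 min, 19274 (84.7%) had the same sign at 180 min, 15152 (66.6%) were called the same way and 1466 (6.44%) the opposite way. After division by FPKM totals, 18368 had the same sign, 14774 were called the same way and 1973 the opposite way. Of the genes confined to a tissue by the thresholds above, 735 of 743 leaf genes and 481 of 484 root genes kept their sign.

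Named genes differed in how far their levels at 180 min departed from those at 0 min. The dirigent-like gene Gohir.D05G380000 was at 0 ± 0 FPKM in leaf and 7274 ± 2627 FPKM in root at 180 min, against 996 ± 286 FPKM in root at 0 min. The lipid transfer gene Gohir.D10G116300 was at 2633 ± 343 FPKM in leaf and 0.358 ± 0.306 FPKM in root. The ethylene-responsive factor gene Gohir.A11G075700 was at 0.184 ± 0.249 FPKM in leaf and 0.176 ± 0.0827 FPKM in root, with no tissue difference called at 180 min. The WRKY gene Gohir.D07G035901 was at 4.63 ± 6.18 FPKM in leaf and 0.145 ± 0.0744 FPKM in root, and its difference at 180 min was also not called (adjusted p = 0.0802). The sulfotransferase gene Gohir.D03G041400 was at 0 ± 0 FPKM in leaf and 9.22 ± 2.71 FPKM in root.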

How the data were processed

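Total RNA was extracted with the EASYspin Plus Complex Plant RNA Kit and libraries were made with the NEBNext Ultra RNA kit, per the labels' protocols, which do not state strand. The tools named are HISAT2 2.0.5 for alignment and, for counting, featureCounts 1.5.0-p3, per the submitters' processing notes. Neither the genome build nor the treatment of reads that fit several genes is given in the sources used here. The authors deposited FPKM for 75376 genes with gene lengths, positions and descriptions. Multiplying the deposited FPKM by length gave whole reads within 0.05 read for 100% of values. The denominators behind the FPKM followed median-of-ratios size factors of all 45 libraries (largest deviation 3.64e-09%), not the reads in genes (39.1%). For a 1-kb gene, a single read corresponded to 0.0440 to 0.0594 FPKM in the 6 libraries. All value columns were assigned to a group.

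Leaf and root at 0 min were fitted with limma 3.58.1 in R 4.3.3 (empirical Bayes with trend and robust settings) on log2(FPKM + 1), over genes with at least 1 FPKM in at least 3 of the 6 libraries. Calls used a Benjamini-Hochberg adjusted p under 0.05 over all tested genes. The comparison at 180 min used the same genes. Copies were compared by fitting the A minus D difference of log2 levels. Tables and figures were made with Python 3.11.15, numpy 2.4.6, pandas 2.3.3 and matplotlib 3.10.9. The procedure was tested on simulated data in which far fewer genes differed than were called here. That test therefore does not measure the error rate of these calls.

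The members, the 62 gene lists and the tests were chosen with earlier results of these data known. Lists come from words in the descriptions and can hold genes of other function, for example linker histones among the histones. Named genes are a subset of the following: the 10 described and called genes with the largest log2 difference each way whose libraries do not overlap; for each list the 2 called members with the largest difference each way and the 2 most abundant members; and the 5 most abundant described genes whose 95% interval lies within 0.5 log2 units of 0. Others are said to be chosen after their values were seen. Alternatives were another pseudocount, filter, threshold, scaling and fit, each library left out, and other times. No identifier was found in the RefSeq gene table, and no sequence was used.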

Additional observations from a re-analysis of the deposited data

Results flagged for a closer look

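For 7 named genes the 3 leaf libraries lay wholly on 1 side of the root libraries at 0 min and wholly on the other side after 180 min of PEG. The change between the times was not itself tested, and PEG, handling and hour of day cannot be told apart in it. The chloroplastic small heat shock gene Gohir.A04G137700 had a log2 difference of 5.12 at 0 min and -4.94 at 180 min, when it stood at 12.8 ± 1.58 FPKM in leaf and 449 ± 185 FPKM in root. The matched D copy Gohir.D04G180900 had no called difference at 180 min, with 20.5 ± 4.13 FPKM in leaf and 22.5 ± 7.88 FPKM in root. The Hsp70 gene Gohir.A06G177000 went from 1.06 to -1.65 and the diacylglycerol kinase gene Gohir.A08G235000 from 0.83 to -4.03, with 2.03 ± 0.103 FPKM in leaf and 49.8 ± 14.1 FPKM in root.

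The reverse order was seen for genes higher in root at 0 min. Lea5-A Gohir.A10G165300 went from -2.92 to 1.89, with 642 ± 227 FPKM in leaf and 169 ± 44.6 FPKM in root. The helix-loop-helix genes Gohir.A08G156400 and Gohir.D08G176900 went from -2.17 and -2.10 to 1.63 and 1.34, and both tissues were lower at 180 min than at 0 min. The TCP gene Gohir.D09G174900 went from -2.46 to 0.40, a difference that was not called at 180 min (adjusted p = 0.104).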

How the results depend on the processing

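No paired analysis was possible because 2 of the 3 root libraries at 0 min share a column name and carry no replicate number. At 180 min, where numbers are shared, a fit with the replicate block called 26907 genes, 13007 of them higher in root, and it was added after seeing the data, as were the other alternatives for the calls at 180 min themselves and for copies. A filter of 5 FPKM in 3 libraries left 25874 genes and 14272 calls (7110 higher in leaf, 7162 in root). With 20 FPKM as the upper bound 380 leaf and 237 root genes were confined to a tissue, and with 5 and 0.5 FPKM as bounds 750 root genes. At 60 min 654 genes called at 0 min were called the opposite way. At 180 min, division by FPKM totals gave 21322 and 7991 calls. Copies paired without regard to place gave 48 opposite pairs.

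Leaving out each library in turn gave 18486 to 23217 calls, 9703 to 11737 higher in leaf and 8783 to 11480 higher in root. It gave 768 to 906 leaf and 501 to 615 root genes confined to a tissue, 25 to 28 of 62 lists with a median above 0, 575 to 705 pairs whose copies differed and 14 to 28 opposite pairs, with 14 without leaf 2 and without root 2. List medians kept their sign under all 14 settings for 48 of 62 lists. With the 5 FPKM filter the median was -0.47 for aquaporins, 0.60 for phenylpropanoid enzymes, 2.76 for SWEET transporters, 0.18 for gibberellin and cytokinin genes, -0.48 for NB-ARC proteins and 1.31 for lipid transfer proteins, over fewer genes. It was -0.0613 for organic acid exporters with no filter and -0.0394 (without leaf 3) to 0.1537 (without leaf 1) for nitrate and peptide transporters, and the cause was not tested. Of 116 named genes called, 114 kept the call under every alternative, and the exceptions were Hsp70 Gohir.A06G177000 and the diacylglycerol kinase Gohir.A08G235000. Most named genes were chosen for large differences in these same libraries, so this count says little about other genes. Over all genes an adjusted p under 0.01 left 16158 calls. Depth limits genes at a few reads, such as those near 0.05 FPKM.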

Other observations

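Lists not described above were as follows, where 25.3% of all tested genes were called higher in leaf and 24.5% higher in root. Glutathione S-transferases, which attach glutathione to toxins, were called higher in root for 41 and higher in leaf for 28 of 116 tested genes. Those are 35.3% and 24.1%, the leaf share being near that of all genes. Their sums were 5071, 5030 and 5553 FPKM in root and 2571, 2395 and 2960 FPKM in leaf, without overlap. Sucrose synthases and invertases were called higher in root for 19 and higher in leaf for 13 of 43, with sums of 1080, 762 and 587 FPKM in root and 331, 333 and 326 FPKM in leaf. Globins, which bind oxygen, had 2 genes called higher in root and 1 in leaf of 4, and their sums of 106, 67.6 and 36.3 FPKM in root and 34.6, 35 and 35.8 FPKM in leaf were most uneven in root. Pyruvate decarboxylases and alcohol dehydrogenases, the fermentation enzymes, had 2 genes called in each direction of 5. Fasciclin-like proteins, which occur in fibre and wood walls, were called higher in leaf for 9 and in root for 7 of 33. These shares, 27.3% and 21.2%, were near those of all tested genes. Organic acid and toxin exporters were called higher in leaf for 37 and in root for 27 of 82.

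Of 187 listed genes that resemble photosystem proteins normally coded in the plastid, 7 passed the filter, 5 of them called higher in leaf, and their summed level was 42.8, 55 and 66 FPKM in leaf and 10.1, 10.1 and 8.88 FPKM in root.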
